A study of Homo sapiens with 6 samples.

Results

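The mitochondrial ribosomal protein genes (MRP genes) encode the protein part of the ribosome that works inside mitochondria. They were taken from the deposited gene table by name, as every row of type protein_coding whose symbol starts with MRPL or MRPS followed by a digit. This gave 78 genes of 38637 rows, 49 of them MRPL genes and 29 MRPS genes. Polyadenylated RNA was sequenced from HCCLM3-SR, a sorafenib-resistant derivative of the hepatocellular carcinoma cell line HCCLM3, which the study obtained by long exposure to rising doses of the drug. Of the 6 libraries, 3 came from cells given an siRNA against cDCBLD2, a circular RNA made from exons of the DCBLD2 gene, and 3 from cells given a control siRNA. For all 6 libraries, controls included, the cells received 5 µM sorafenib, and the transfection lasted 3 days. The sources give no parental, untreated or drug-free library in this comparison, and only 1 cell line was used.

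Mitochondria carry their own small genome, and the mRNAs it encodes, all for subunits of the respiratory chain and ATP synthase, are translated by a dedicated ribosome. Its rRNAs come from mitochondrial DNA, whereas its proteins are encoded in the nucleus, made in the cytosol and imported. Some of these proteins descend from bacterial ribosomal proteins and others have no bacterial counterpart. In liver-derived tumour cells, as in other cells, the synthesis of respiratory complexes depends on this machinery.

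All 78 MRP genes passed the filter of a mean of at least 1 TPM (the deposited level, corrected for transcript length and given as a share of each library), which 13980 genes passed. Between 17489570 and 23059351 reads per library could be recovered from the values, and in every library at least 53 reads stood behind each MRP gene. Of the 4 epithelial genes looked up, the keratins KRT8 and KRT18 were at 1800 TPM or more in every library and CDH1 between 37.7 and 62.0 TPM, whereas EPCAM reached at most 0.323 TPM. Of 6 hepatocyte and hepatoma genes, the regulator HNF4A was between 22.9 and 31.3 TPM, and the secreted products SERPINA1, AFP, TTR, ALB and APOA1 reached at most 3.00, 2.08, 1.64, 1.58 and 0.774 TPM, so most of these markers were low. The sum of the 6 was 33.8 to 37.6 TPM after knockdown and 27.5 to 28.2 TPM in controls. Most of it was HNF4A, at 27.0 to 31.3 against 22.9 to 23.7 TPM. TTR was higher after knockdown (1.30 to 1.64 against 0.202 to 0.241 TPM), while ALB ranged lower with overlap (0.189 to 0.882 against 0.714 to 1.58 TPM). The 4 epithelial genes summed to 5860 to 7010 TPM after knockdown and 4850 to 5660 TPM in controls. The 4 genes of other cell types (PTPRC, PECAM1, COL1A1 and VIM) summed to 34.0 to 44.6 TPM against 30.1 to 36.7 TPM, with PTPRC under 0.42 TPM in every library and COL1A1 at 3.61 to 11.2 TPM against 1.13 to 3.35 TPM. The part of these markers in the differences was not tested. The circle itself is not listed in the table. The linear DCBLD2 mRNA from the same gene was at 58.1, 25.9 and 31.6 TPM in knockdown libraries 1 to 3 and 71.5, 48.5 and 50.7 TPM in control libraries 1 to 3, with a log2 fold change of -0.61 (SE 0.31, adjusted p 0.253, with replicate block 0.0139), and the table holds no direct check of the labels. Same-numbered libraries departed from the mean of their group in the same direction, with correlations of 0.56, 0.34 and 0.36 across genes for the 3 pairs. A fit with the replicate number as a block is therefore given beside each result whose call it changes.

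The MRP genes spanned a wide range of levels. Over all 6 libraries, the highest mean was 125-fold the lowest, 29 genes had a mean of at least 100 TPM and 12 genes had a mean under 20 TPM. At the top stood MRPL12, which forms the stalk of the large subunit where translation factors dock. It was at 784, 696 and 657 TPM in knockdown libraries 1 to 3 and at 825, 724 and 675 TPM in control libraries 1 to 3. In both groups the first library was the highest, and the groups overlapped. MRPL41, a large-subunit protein without a bacterial counterpart, followed at 459, 465 and 434 TPM after knockdown and 439.6, 438 and 414 TPM in controls. The next 3 were MRPS34, MRPL24 and MRPL51, with means over all libraries of 361, 341 and 341 TPM. These 3 do not differ in level beyond their spread between libraries, whereas MRPL12 lay above MRPL41 and MRPL41 above MRPS34 in every library.

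**Figure D1:**
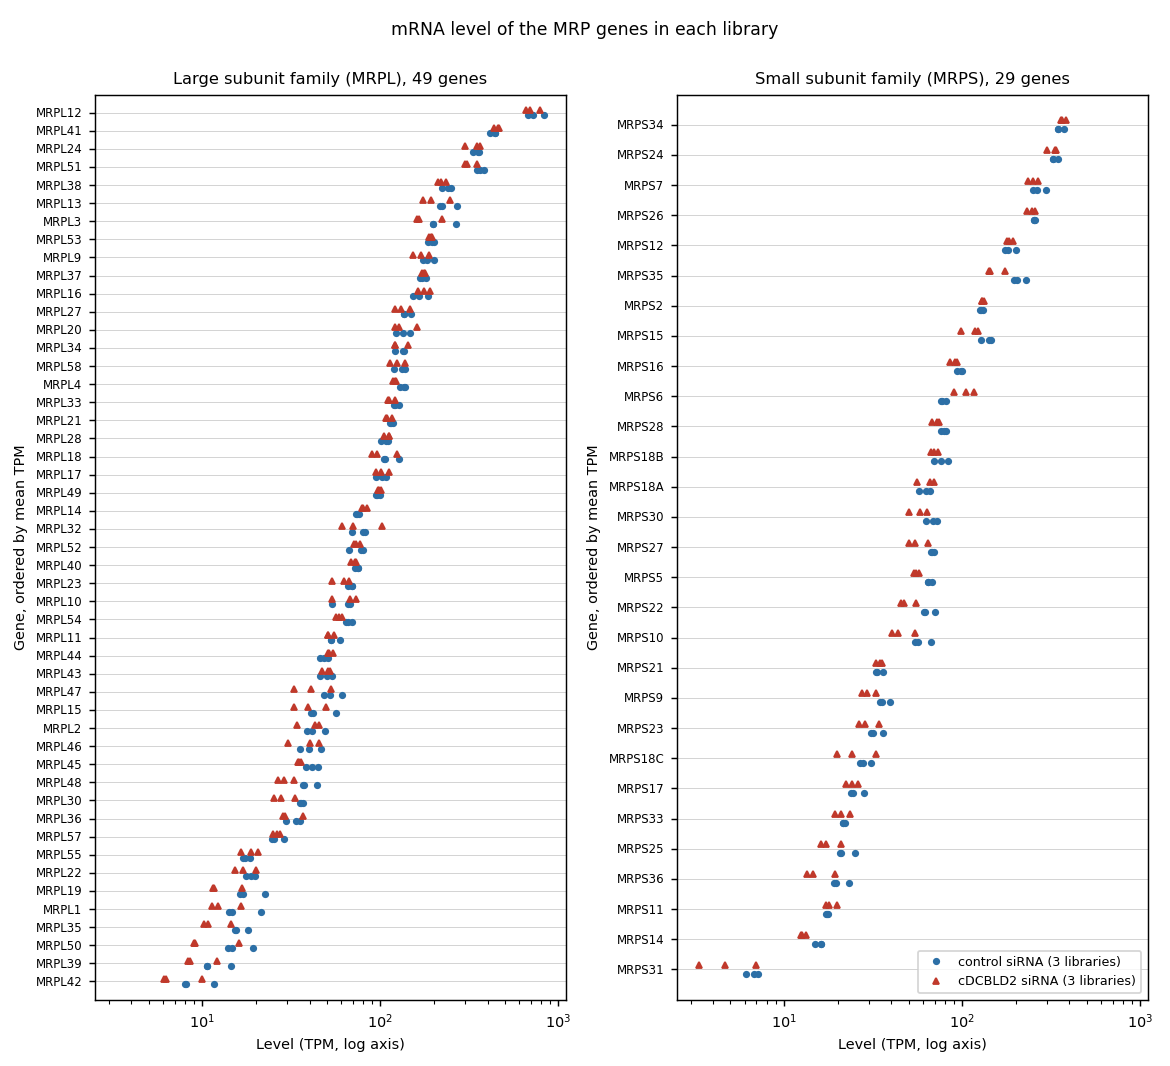
Level of each MRP gene in TPM on a log axis, in the 3 control libraries (blue circles) and the 3 cDCBLD2 siRNA libraries (red triangles), with MRPL genes left and MRPS genes right, ordered by mean. MRPL12 is at the top near 727 TPM and MRPS31 at the bottom near 5.81 TPM, and for most genes the red and blue points overlap.

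The lowest means belonged to MRPS31, MRPL42, MRPL39, MRPL50 and MRPL35. MRPS31, a small-subunit protein, was at 6.95, 3.31 and 4.64 TPM after knockdown and 7.15, 6.74 and 6.10 TPM in controls, from 53 to 92 reads per library. Its knockdown libraries 2 and 3 were the lowest, and library 1 lay among the controls. MRPL42 was at 9.99, 6.25 and 6.09 TPM after knockdown and 11.7, 8.05 and 8.07 TPM in controls. It was low in TPM but not in reads. It had 835 to 1233 recovered reads per library and ranked 35 of the 78 by recovered reads. The exons annotated for it cover 16393 bases, against 1028 for MRPL12. For MRPL42 1 TPM stood for 106 recovered reads, against 3.40 for MRPL12. Recovered reads are lower bounds that can fall short by different factors in different genes, so the rank and these ratios are approximate.

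The 78 genes together made up 0.781 to 0.905% of each library's TPM. Their sum was 8513, 8114 and 7809 TPM in the 3 knockdown libraries and 9052, 8504 and 8236 TPM in the 3 control libraries. Within each pair of libraries with the same number the knockdown sum was lower, with log2 ratios of -0.09, -0.07 and -0.08, while the second control library lay below the first knockdown library, so the groups overlapped. The first library of each group stood above the other 2: across the MRP genes the median excess was 0.15 (log2) after knockdown and 0.11 in controls, compared with 0.08 and 0.04 over all genes tested. A TPM is a share of a library's RNA, and a lower share cannot be told apart from more RNA of other genes.

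The comparison of knockdown with control asked whether knockdown of the circle changed these mRNAs under sorafenib. No MRP gene passed an adjusted p of 0.05 in the fit without block (limma on log2(TPM + 1), Benjamini-Hochberg over 13980 genes), in which 0.250% of all genes tested passed as higher and 0.629% as lower. The unadjusted p was under 0.05 for 18 MRP genes (23.1%, against 26.1% of all genes tested). Once the replicate block was in the fit, 25 of the 78 genes (32.1%) fell, where 25.0% of all genes tested did, and 1 (1.28%), MRPS6, rose, where 9.94% of all genes did. No MRP gene passed both the adjusted p and the study's minimum of 1 for the size of the log2 fold change, which 0.129% of all genes tested passed without the block and 1.21% with it. The median log2 fold change of the MRP genes was -0.10, and 18 of 78 (23.1%) were above 0. Over all genes tested the median was -0.08 and 37.6% were above 0. Whether the family as a whole lies below 0 depends on the scaling, since its median was -0.0003 after median-of-ratios scaling and 0.0019 on recovered reads.

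**Figure D2:**
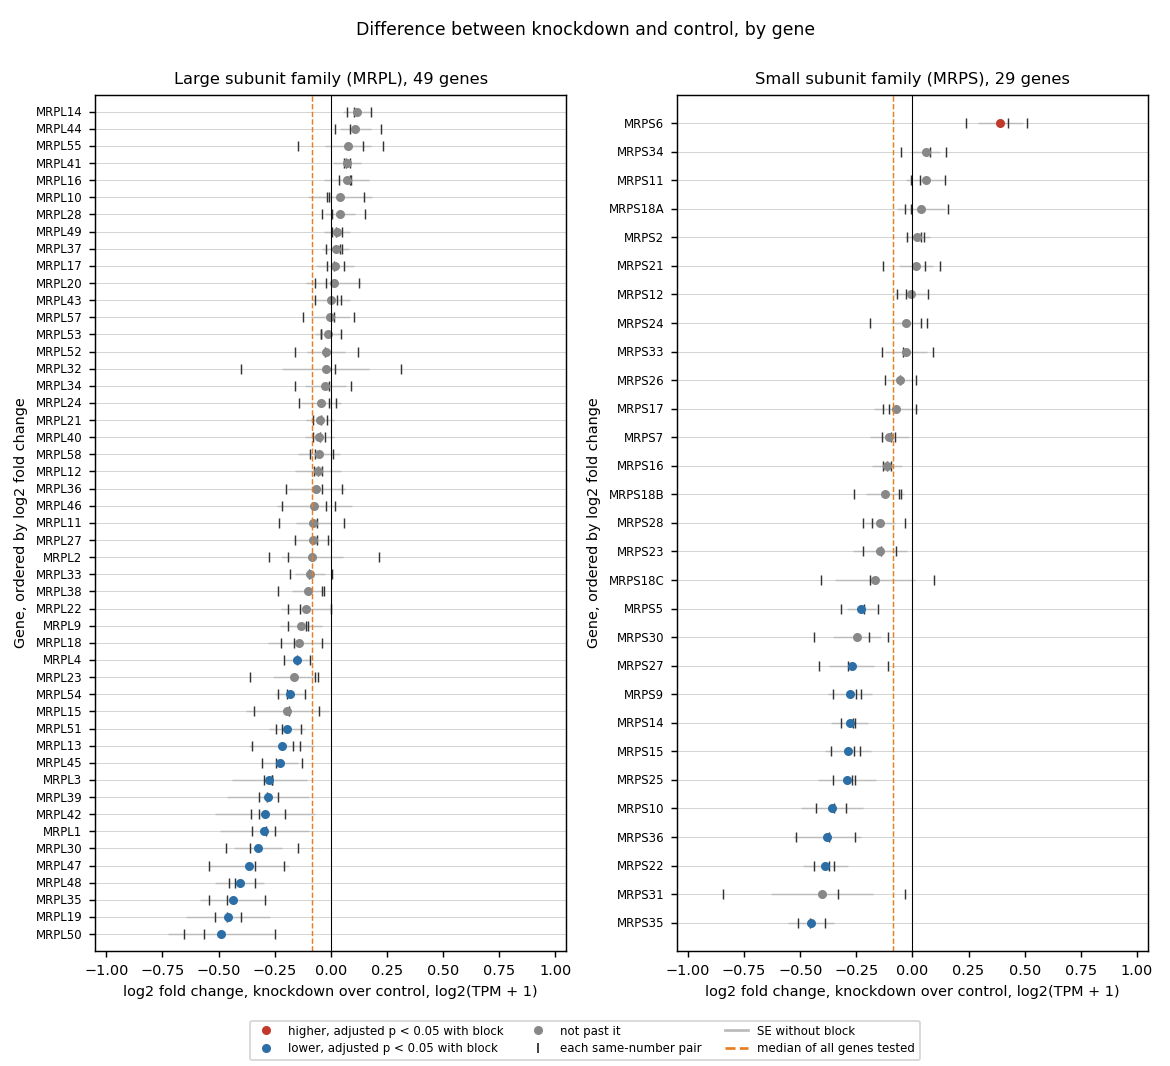
Log2 fold change of each MRP gene, knockdown over control, with its SE from the fit without block (grey bar), the 3 same-number pairs (ticks) and the median of all genes tested (dashed line). Blue marks the 25 genes that fell with the block and red marks MRPS6, and no gene's fold change lies beyond 1 in either direction.

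Among the 30 large-subunit proteins with a bacterial counterpart, the median log2 fold change was -0.08, and with the block 8 fell (26.7%, against 25.0% of all genes tested) and none rose (against 9.94%). The 8 were MRPL1, MRPL3, MRPL4, MRPL13, MRPL19, MRPL30, MRPL35 and MRPL47. Under the other 4 scalings with the block, described further on, 3 to 7 of this class fell and 0 to 4 rose. Of all genes, 12.7 to 20.5% fell and 11.6 to 17.9% rose under these 4, which is the background for the later classes too. The largest difference was in MRPL19. It was at 16.8, 11.5 and 11.6 TPM after knockdown and 22.4, 16.2 and 17.0 TPM in controls. Each knockdown library was below its own control, but the first knockdown library lay among the controls. Its log2 fold change was -0.46 (SE 0.19), with an adjusted p of 0.182 without block and 0.00798 with it. MRPL35 was at 14.5, 10.8 and 10.2 TPM against 18.0, 15.2 and 15.4 TPM, without overlap between groups. Its log2 fold change was -0.43 (SE 0.15, adjusted p 0.138, with block 0.0131). MRPL47, the counterpart of a bacterial protein at the exit of the peptide tunnel, was at 52.6, 40.8 and 32.9 TPM against 60.8, 51.8 and 48.4 TPM, a log2 fold change of -0.36 (SE 0.18, adjusted p 0.246, with block 0.0184). In this gene the first knockdown library again overlapped the controls.

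In the same class, 4 genes among the most abundant or with the largest positive values stayed short of the threshold in both fits. MRPL12 differed by -0.06 (SE 0.10, adjusted p 0.758, with block 0.263), and its sign changed with the scaling. MRPL24, whose bacterial counterpart starts the assembly of the large subunit, was at 299, 362 and 349.9 TPM after knockdown and 329, 356 and 352 TPM in controls, with overlap and a log2 fold change of -0.04 (SE 0.09). MRPL14, the docking site of the assembly factor MALSU1, was at 84.4, 78.9 and 79.5 TPM against 74.3, 73.4 and 75.7 TPM. All 3 knockdown libraries were above all 3 controls, with a log2 fold change of 0.12 (SE 0.06, adjusted p 0.268, with block 0.10). MRPL55 was at 16.6, 20.6 and 18.9 TPM against 18.4, 17.4 and 17.0 TPM, and its groups overlapped (log2 fold change 0.08, SE 0.10).

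The next class held 21 large-subunit proteins listed as mitochondria-specific, 2 of which carry MRPS names (MRPS30 and MRPS18A). MRPS18A is a paralog named for the bacterial S18 protein and is listed here by its place. In this class 7 fell (33.3%, against 25.0% of all genes) and none rose with the block, and the median was -0.05. These 7 were MRPL39, MRPL42, MRPL45, MRPL48, MRPL50, MRPL51 and MRPL54. Under the other 4 scalings 2 to 6 fell and 0 to 2 rose. MRPL50 had the lowest log2 fold change of all 78 genes. It was at 16.0, 9.07 and 9.01 TPM after knockdown and 19.2, 13.9 and 14.7 TPM in controls. Knockdown libraries 2 and 3 were below every control and library 1 was not (log2 fold change -0.49, SE 0.24, adjusted p 0.243, with block 0.0176). MRPL48 was at 32.5, 28.7 and 26.8 TPM against 44.0, 36.6 and 37.0 TPM, with the groups apart (log2 fold change -0.41, SE 0.11, adjusted p 0.0956, with block 0.00702). MRPL51 was at 349, 305 and 300.1 TPM against 382, 361 and 349 TPM, and its highest knockdown library just overlapped its lowest control (log2 fold change -0.20, SE 0.08, adjusted p 0.184, with block 0.0187).

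MRPL39 was at 12.1, 8.31 and 8.56 TPM after knockdown and 14.5, 10.6 and 10.6 TPM in controls, with a log2 fold change of -0.28 (SE 0.18, adjusted p with block 0.0322). MRPL42 gave -0.29 (SE 0.22, adjusted p with block 0.0402). In both genes the first knockdown library overlapped the controls. MRPL44, a protein with the fold of a double-strand ribonuclease, was at 51.2, 53.9 and 51.1 TPM against 50.6, 46.1 and 48.0 TPM. All knockdown values were above all control values, by a log2 fold change of 0.11 (SE 0.07, adjusted p 0.353, with block 0.196). MRPL41 was higher in each pair but the groups overlapped (log2 fold change 0.07, SE 0.06, adjusted p with block 0.169). MRPL58, a peptidyl-tRNA hydrolase related to release factors that rescues stalled ribosomes, was at 138, 125 and 114 TPM against 137, 133 and 119 TPM and differed by -0.05 (SE 0.09).

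Among the 15 small-subunit proteins with a bacterial counterpart the median was -0.10, with 5 that fell with the block (33.3%, against 25.0% of all genes), MRPS5, MRPS9, MRPS10, MRPS14 and MRPS15, and 1 that rose (6.67%, against 9.94%). Under the other 4 scalings 2 to 5 fell and 1 to 2 rose. The gene that rose was MRPS6, whose bacterial counterpart sits on the platform of the small subunit. It was at 90.3, 105 and 116 TPM after knockdown and 76.4, 77.4 and 81.3 TPM in controls. Every knockdown library was above every control, and the spread was wider after knockdown. The log2 fold change of 0.39 (SE 0.10) had an adjusted p of 0.0892 without block and 0.0103 with it, and the two-sided exact permutation test on 3 against 3 libraries gave 0.1, the smallest p it can give. MRPS6 (chromosome 21, 34073224 to 34143034, plus strand, GENCODE 29 on GRCh38) holds SLC5A3, the gene of a myo-inositol transporter, on the same strand, so the assignment of reads between them is uncertain. SLC5A3 went the other way, at 8.80, 6.78 and 10.4 TPM against 11.5, 10.9 and 13.4 TPM. Its log2 fold change was -0.44 (SE 0.16, adjusted p 0.159, with block 0.0175), and -0.02 after a GC-content offset.

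MRPS15, the counterpart of a bacterial protein that binds the rRNA early in assembly, was at 123, 118 and 98.7 TPM after knockdown and 145, 142 and 127 TPM in controls. The groups did not overlap, and its log2 fold change was -0.29 (SE 0.10, adjusted p 0.148, with block 0.00981). The human genes named for the bacterial S18 protein are 3 paralogs that take different places, MRPS18C in the position of the bacterial protein, MRPS18B elsewhere in the small subunit and MRPS18A in the large subunit. MRPS18A was at 55.8, 69.9 and 65.9 TPM against 57.2, 62.6 and 66.3 TPM. MRPS18B was at 67.2, 73.0 and 69.5 TPM against 69.8, 76.2 and 83.4 TPM. MRPS18C, the least abundant of the 3 in every library, was at 32.7, 24.1 and 19.8 TPM against 30.6, 27.6 and 26.6 TPM. The groups overlapped in all 3, and the log2 fold changes of 0.04 (SE 0.11), -0.12 (SE 0.08) and -0.17 (SE 0.18) did not pass with or without block.

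The 10 small-subunit proteins listed as mitochondria-specific, the S18 paralog MRPS18B included, had a median of -0.21. With the block 4 of them (40.0%, against 25.0% of all genes) fell (MRPS22, MRPS25, MRPS27 and MRPS35) and none rose. Under the other 4 scalings 2 to 3 fell and 0 to 1 rose. MRPS35 was at 173, 142 and 143 TPM after knockdown and 227, 202 and 196 TPM in controls. The groups were apart, and its adjusted p was the smallest of the family in both fits (log2 fold change -0.45, SE 0.10, adjusted p 0.0746, with block 0.00458). MRPS22, in which inherited variants cause mitochondrial disease, was at 54.8, 46.9 and 45.3 TPM against 70.1, 61.0 and 61.8 TPM, again with no overlap (log2 fold change -0.39, SE 0.10, adjusted p 0.0892, with block 0.00639). MRPS31 had a log2 fold change of -0.40 but with an SE of 0.23 and an adjusted p of 0.301, or 0.115 with the block, and its TPM ratios within pairs ranged from -0.04 to -1.03 (log2, no pseudocount). MRPS34, at 359.8, 382 and 364 TPM against 373, 344 and 345 TPM, overlapped between groups (log2 fold change 0.06, SE 0.06).

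MRPS28 and MRPS36 were placed in no class. MRPS36 carries the family name but is now named KGD4, a component of the 2-oxoglutarate dehydrogenase complex of the citric acid cycle, and is not a mitoribosome subunit. It was at 19.3, 13.4 and 14.6 TPM after knockdown and 23.2, 19.6 and 19.2 TPM in controls, where the first knockdown library overlapped the controls (log2 fold change -0.38, SE 0.15, adjusted p 0.177, with block 0.0161). Without it, 24 of 77 MRP genes (31.2%) fell with the block. MRPS28 was lower in all 3 knockdown libraries than in any control but did not pass with or without block on deposited TPM (log2 fold change -0.14, SE 0.07, adjusted p 0.226). With the GC-content offset described further on, its sign turned and it passed as higher (log2 fold change 0.14, adjusted p 0.0493 with block).

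In 14 of the 78 genes (17.9%) all 3 knockdown libraries lay below all 3 controls, where 22.3% of all genes tested did, and in 3 (3.85%) all lay above, where 9.58% did. Of the 14, 13 also fell with the block, and the other was MRPS28. The 3 above were MRPS6, MRPL14 and MRPL44. Compared pair by pair, 41 MRP genes (52.6%, against 43.7% of all genes tested) were lower in each of the 3 pairs. In 6 (7.69%, against 22.0%) the knockdown library was higher in each pair (MRPL14, MRPL16, MRPL41, MRPL44, MRPL49 and MRPS6).

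**Figure D3:**
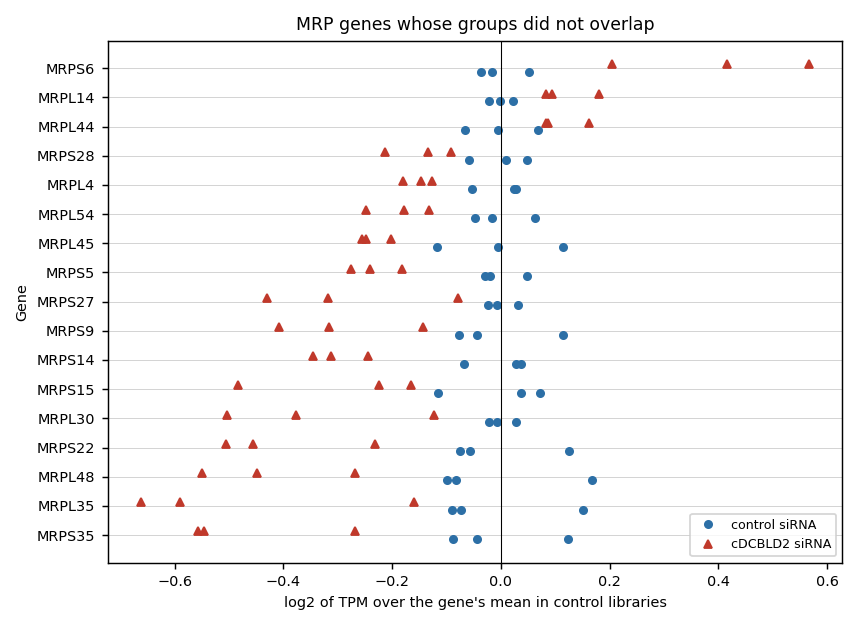
The 17 MRP genes whose groups did not overlap, each library shown as the log2 of its TPM over the gene's mean in control libraries (controls blue circles, knockdown red triangles). The 3 genes at the top were higher after knockdown and the 14 below were lower, with the groups of MRPL44, MRPS28, MRPS15 and MRPS27 close to touching.

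The size of the difference went along with base composition. The GC content of the longest coding transcript correlated with the log2 fold change over the 78 MRP genes (Spearman's rho 0.62) and over the 13161 genes tested with a known GC content (rho 0.64). These genes share the same 6 libraries, so the values are a description. In the third of MRP genes with the lowest GC content, 35.0 to 46.2%, the median was -0.28 and 16 of 26 (61.5%) fell with the block, while among all genes of that GC range the median was -0.33 and 51.9% fell. In the 26 genes of middle GC content the median was -0.09 and 6 of 26 fell (23.1%, against 20.3% of all genes in that range), and MRPS6 rose (3.85%, against 5.76%). In the third with the highest GC content, 52.9 to 71.9%, the median was -0.03 and 3 of 26 fell (11.5%, against 4.12%), and none rose, where 21.5% of all genes in that range did. Transcript length went with the log2 fold change more weakly (rho -0.27 in MRP genes, -0.28 in all). The part of GC content in these differences was not tested further than by the offsets that follow.

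Other scalings of the same libraries moved many of the calls. With median-of-ratios scaling and the block, 12 MRP genes fell (15.4%, against 17.7% of all genes tested), all of them among the 25, and 4 rose (5.13%, against 15.6%): MRPS6, MRPL14, MRPL16 and MRPL41. With the block and limma-voom, run on recovered reads, 13 fell (16.7%, against 20.5% of the 15018 genes in that fit), all among the 25, and the same 4 plus MRPL44 rose (6.41%, against 17.5%). An offset for transcript length left 21 that fell (26.9%, against 16.9% of the 13161 genes with a known length and GC content), all among the 25, and MRPS6 (1.28%, against 17.9%). An offset for GC content left 9 that fell (11.5%, against 12.7% of the same 13161), 5 of them among the 25, and 9 that rose (11.5%, against 11.6%). The 9 that fell were MRPL4, MRPL12, MRPL23, MRPL38, MRPL54, MRPS5, MRPS15, MRPS22 and MRPS26. The 9 that rose were MRPL17, MRPL22, MRPL27, MRPL33, MRPL44, MRPS6, MRPS18C, MRPS28 and MRPS33, of which MRPL22, MRPL27, MRPL33, MRPS18C, MRPS28 and MRPS33 had a log2 fold change below 0 on deposited TPM. MRPL12 gave -0.20 under this offset (adjusted p 0.0165) and MRPS18C 0.25 (adjusted p 0.0475), and for both the sign differed between scalings.

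MRPS15 and MRPS22 fell and MRPS6 rose in all 5 fits with the block, a trio chosen after their values were seen. The share of all genes tested that passed in all 5 was not counted, so passing in all 5 cannot be called unusual here. The log2 fold changes over these fits lay between -0.30 and -0.19 for MRPS15, between -0.39 and -0.28 for MRPS22 and between 0.38 and 0.51 for MRPS6. For MRPL50, which had the lowest value on deposited TPM, the log2 fold change was -0.003 (adjusted p 0.973) after the GC-content offset. For MRPL19 and MRPS35 it was -0.05 (adjusted p 0.587) and -0.11 (adjusted p 0.119).

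**Figure D4:**
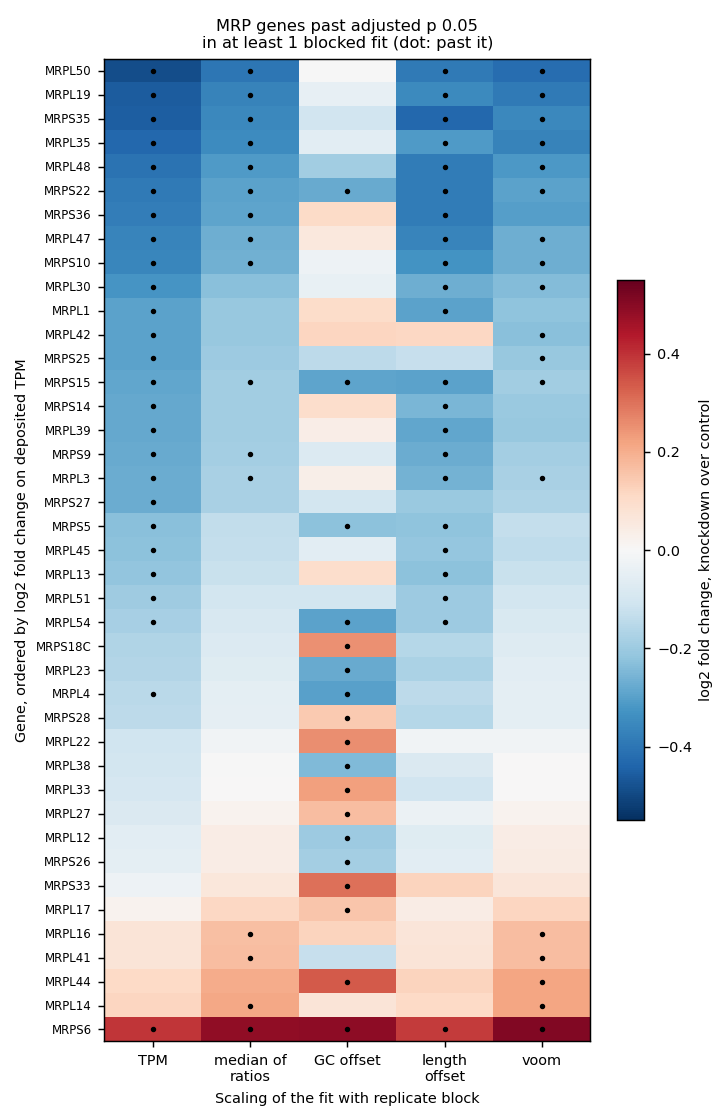
Log2 fold change, knockdown over control, of the 41 MRP genes that passed an adjusted p of 0.05 in at least 1 of 5 fits with the replicate block, 1 column per scaling (blue lower, red higher, dot past the threshold). The share of all genes tested that passed in at least 1 of the 5 was not counted. The GC-offset column is the one where most of the genes at the top lose both colour and dot, and the bottom row, MRPS6, keeps its dot in all 5.

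cDCBLD2 is studied as a sponge of the microRNA miR-345-5p, so MRP transcripts were searched for matches to its seed, bases 2 to 8, shown here in capitals in the RefSeq mature sequence.
hsa-miR-345-5p: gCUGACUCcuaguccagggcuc
The complementary letters GAGTCAG were found in the 3′ UTR of 2 of the 78 MRP genes (2.56%), MRPL22 and MRPS27, and only in the coding sequence of 1 more (1.28%), MRPL48, in the longest coding transcripts of GENCODE 29. Among 11739 protein-coding genes tested, 11.0% had the match in the 3′ UTR and 11.2% only in the coding sequence. MRP transcripts were shorter, with a median of 1516 bases against 3313 over protein-coding genes tested. The shares were not adjusted for length, so they do not show whether the family is poor in matches. MRPS27 also held it in its coding sequence, and MRPL32 and MRPL55 held it in the 5′ UTR. One site is shown for each of the 3 genes with a match in the 3′ UTR or coding sequence, read on the gene's strand on GRCh38 with the match in capitals.
MRPL22, 3′ UTR, plus strand, chr5:154968333-154968357: tgtagcatgGAGTCAGggaaataac
MRPS27, 3′ UTR, minus strand, chr5:72220554-72220578: aaggctgaaGAGTCAGgttgaagca
MRPL48, coding sequence, plus strand, chr11:73863230-73863254: ttcctgaagGAGTCAGactgtcagt
MRPL22 was at 19.9, 17.0 and 15.3 TPM after knockdown and 19.9, 18.8 and 17.6 TPM in controls, with overlap and no call on deposited TPM with or without block (log2 fold change -0.11, SE 0.11), but it passed as higher with the GC-content offset and block (log2 fold change 0.26, adjusted p 0.0196). MRPS27 was at 50.4, 64.3 and 54.5 TPM against 67.6, 69.4 and 66.8 TPM, without overlap (log2 fold change -0.27, SE 0.10, adjusted p 0.152, with block 0.0324). MRPL48 fell with the block as given above. A match of letters is a description and says nothing of binding.

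Promoters of genes for mitochondrial proteins are known for sites of the nuclear respiratory factor NRF1, of ETS family factors such as GABP, and of YY1. Promoter windows of RefSeq (GRCh38.p14; the first window listed per gene, 250 bases before to 50 after the start) matched 70 of the 78 MRP genes by symbol. They were searched on both strands for GCGCATGCG (NRF1), CCGGAAGT (ETS), AAGATGGCG (YY1) and the letters TATAAA. None of these contains another, but the NRF1 letters can overlap their own reverse complement. The YY1 letters stood in 13 of 70 windows (18.6%), against 1.85% of all 27305 windows and 4.19% of those of protein-coding genes tested. The ETS letters stood in 11 (15.7%, against 4.44% and 9.35%), the NRF1 letters in 3 (4.29%, against 2.1% and 3.74%) and TATAAA in 3 (4.29%, against 12.0% and 5.54%). At least 1 of the first 3 was present in 24 windows (34.3%, against 7.86% and 16.1%). Examples are shown for MRPS22 and MRPL50, because the first fell under every scaling with block and the second had the lowest value on deposited TPM, and for MRPL17, because it holds NRF1 letters at separate places. Each is read on the gene's strand with the match in capitals, and for MRPS22 the capitals are the reverse complement of the ETS letters.
MRPS22, ETS, plus strand, chr3:139343905-139343930: gcccggaagACTTCCGGccctttccg
MRPS22, ETS, plus strand, chr3:139343989-139344014: ctcccaaccACTTCCGGcgcaagtgg
MRPL50, YY1, minus strand, chr9:101398579-101398603: tctcatcgAAGATGGCGgcgcgatc
MRPL17, NRF1, minus strand, chr11:6683367-6683391: gagctaagGCGCATGCGttccctga
The median log2 fold change was -0.10 in MRP genes with the YY1 letters and -0.08 in the other 57, and -0.08 in those with the ETS letters against -0.09 in the other 59. These differences were not tested.

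Genes that work with the MRP proteins were followed in the same fits, from lists of textbook members. With the block, as above, 25.0% of all genes tested fell and 9.94% rose. Of the 5 mitoribosome subunits with other names, 2 fell with the block (40.0%) and none rose. PTCD3, an RNA-binding protein of the small subunit, was at 15.6, 11.3 and 9.99 TPM after knockdown and 21.9, 20.9 and 21.7 TPM in controls. The groups were far apart, and its log2 fold change of -0.78 (SE 0.16, adjusted p 0.0655, with block 0.00924) was larger in size than that of any MRP gene. PTCD3 passed in all 5 fits with the block, but the share of all genes tested that did so was not counted. DAP3, a GTP-binding protein of the small subunit, was at 178, 204 and 181 TPM against 214, 241 and 231 TPM, also without overlap (log2 fold change -0.28, SE 0.08, adjusted p 0.102, with block 0.00846). CHCHD1, AURKAIP1 and GADD45GIP1 had log2 fold changes of 0.05, -0.05 and 0.01 and did not pass with or without block on deposited TPM. With the GC-content offset and block, CHCHD1 rose (0.30, adjusted p 0.0104) and AURKAIP1 fell (-0.22, adjusted p 0.0189).

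Of 16 mitochondrial translation factors, 6 fell with the block (37.5%, against 25.0% of all genes) and none rose (against 9.94%), and the median was -0.19. The 6 were MTIF2, GFM1, GFM2, MRRF, LRPPRC and SLIRP. With the GC-content offset 2 fell (12.5%, against 12.7% of all genes) and none rose (against 11.6%). Under each of the other 3 scalings 5 fell (31.2%, against 16.9 to 20.5%). At most 1 rose there (6.25%, against 15.6 to 17.9%). LRPPRC, which with SLIRP binds and stabilises mitochondrial mRNAs, had the largest difference. It was at 80.6, 40.9 and 48.6 TPM after knockdown and 119, 91.1 and 97.3 TPM in controls, with a log2 fold change of -0.89 (SE 0.25, adjusted p 0.0996, with block 0.00660). LRPPRC also passed in all 5 fits with the block, for which the share of all genes was not counted. SLIRP was at 139, 123 and 109 TPM against 164, 138 and 119 TPM, with overlap and a smaller log2 fold change of -0.18 (SE 0.14, adjusted p 0.458, with block 0.0284). GFM1, an elongation factor, was at 18.4, 11.1 and 10.5 TPM against 24.9, 17.9 and 18.3 TPM (log2 fold change -0.60, SE 0.23, adjusted p 0.168, with block 0.00791). TUFM, the abundant elongation factor that delivers tRNAs, was at 328, 348 and 344 TPM against 348, 361 and 338 TPM and passed neither fit (log2 fold change -0.04, SE 0.06).

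Of 25 assembly factors of the mitoribosome, 4 fell with the block (16.0%, against 25.0% of all genes) and none rose (MTERF3, FASTKD2, RBFA and MALSU1), with a median of -0.07. Under each of the other 4 scalings 3 fell (12.0%, against 12.7 to 20.5% of all genes). At most 2 rose under these (8.0%, against 11.6 to 17.9%). Of 9 genes for the expression and replication of mitochondrial DNA, 3 fell (33.3%, against 25.0%) and none rose (TFAM, TFB2M and POLG2), with a median of -0.17. With the GC-content offset and block, 1 fell (11.1%, against 12.7% of all genes) and 2 rose (22.2%, against 11.6%). TFAM, which packages mitochondrial DNA and starts its transcription, was at 20.8, 11.5 and 11.8 TPM after knockdown and 22.5, 18.2 and 17.6 TPM in controls, and its first knockdown library overlapped the controls (log2 fold change -0.42, SE 0.23, adjusted p 0.297, with block 0.0385). Of 8 regulators of mitochondrial biogenesis that passed the filter, 3 fell (37.5%, against 25.0%) and none rose (GABPA, GABPB1 and YY1). Under the other 4 scalings 1 to 2 fell (12.5 to 25.0%, against 12.7 to 20.5% of all genes). PPARGC1A, a coactivator of this programme, reached at most 0.0105 TPM. The mRNAs encoded by mitochondrial DNA were not analysed here.

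Of 84 cytosolic ribosomal protein genes tested, 21 fell (25.0%, as of all genes) and 1 rose (1.19%, against 9.94%) with the block, with a median of -0.10. Only 2 fell (2.38%, against 17.7% of all genes) with median-of-ratios scaling, and 2 by limma-voom (2.38%, against 20.5%). With the GC-content offset 14 fell (16.7%, against 12.7%) and 7 rose (8.33%, against 11.6%). Of 90 respiratory chain genes encoded in the nucleus, 24 fell (26.7%, against 25.0%) and 3 rose (3.33%, against 9.94%), with a median of -0.09. Their counts moved with the scaling, all with the block. With median-of-ratios scaling 5 fell (5.56%, against 17.7% of all genes) and 7 rose (7.78%, against 15.6%). By limma-voom 7 fell (7.78%, against 20.5%) and 10 rose (11.1%, against 17.5%). With the GC-content offset 7 fell (7.78%, against 12.7%) and 17 rose (18.9%, against 11.6%). On deposited TPM the medians of these families and of the MRP genes (-0.10) lay within 0.02 of that of all genes tested (-0.08), and no difference between the families was tested.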

How the data were processed

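PolyA-Seq libraries of HCCLM3-SR cells, 3 with cDCBLD2 siRNA and 3 with control siRNA, were grouped by their labels. The authors deposited 1 table of TPM per gene, and the submitters' processing notes list fastp 0.20.1, HISAT2 2.1.0, StringTie 2.0 and hg38. The annotation, strand setting and treatment of multimapping reads are not given in the sources used here, and 38 of the 78 MRP genes overlap another coding gene in GENCODE 29, 13 of them on the same strand.

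The filter kept genes whose mean reached 1 TPM. A pseudocount of 1 went in before the log2, and limma 3.58.1 (R 4.3.3, mean-variance trend) was fitted over all of them with Benjamini-Hochberg adjustment, two-sided. Fold changes are on the log2(TPM + 1) scale, which understates changes of low genes. The study's methods name no block, so the block is given as a second fit. The design written for this work allowed for counts, but the values were TPM, so the test for normalized values was used. Since the labels do not say that replicates were separate cultures, p-values measure the spread between these libraries, which may be technical. The replicate numbers were taken as pairs because same-numbered libraries deviated together (mean correlation 0.42, against -0.19 for other pairs of libraries across the groups). Deviations were taken from each group's own mean, so the second value largely follows from the first and is no separate contrast. Whether numbers 2 and 3 pair apart from the first libraries was not tested.

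Whole reads were recovered from the TPM with numpy 2.4.6 and numba 0.67.0 for 17285 genes above 0 in all libraries, for which 100.0% of values lay within 0.02 reads of a whole number, against 2.15% with library factors moved at random. They are lower bounds on depth and cover counting error only. Alternatives were upper-quartile and median-of-ratios scaling, no filter, a mean of at least 10 TPM, protein-coding genes only, a pseudocount of 0.1, loess offsets (span 0.5) for GC content or length, limma-voom on recovered reads and leaving out libraries. A GC content was found for 94.1% of genes tested. The fits were run on simulated reads with changes larger than that of any MRP gene and without replicate or GC effects. The simulation therefore does not test calls as small as these, or their dependence on the block and the offsets.

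Genes named with values were the members with the largest changes, the 5 highest and 5 lowest levels and a few fixed by name, and others, the examples from the other lists included, were chosen after their values were seen. The members and lists were chosen with earlier results of these data known. Protein sequences were not analysed here.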

Additional observations from a re-analysis of the deposited data

How the results depend on the processing

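The calls depended on the replicate block and, with the block, on the scaling. Filters were varied only without the block, where no MRP gene passed with all libraries, so their weight cannot be compared. Without the block, 0 MRP genes passed in either direction under each of the 9 other settings with all libraries (limma or limma-voom; 18 had an unadjusted p under 0.05 as reported). With the pairing by replicate block, 1 rose and 25 fell on deposited TPM. The counts that rose and fell with the block were 4 and 12 after median-of-ratios scaling, 9 and 9 with the GC-content offset, 1 and 21 with the length offset, and 5 and 13 by limma-voom. Leaving out 1 library without the block gave 0 to 1 that rose and 0 to 14 that fell, and only leaving out knockdown replicate 1 gave any calls (1 and 14). In that fit 649 of all 13980 genes tested rose and 2771 fell. Leaving out a pair with the block gave 0 to 1 that rose and 1 to 27 that fell: 27 without the first pair, 3 without the second and 1 without the third. Of all 13980 genes tested, 3912, 1083 and 446 fell in these fits, and 1583, 417 and 185 rose. The counts over all genes thus went down in the same order.

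The median log2 fold change of the MRP genes, -0.0958 as reported, was -0.0252 after upper-quartile scaling, -0.0003 after median-of-ratios scaling with and without the block, -0.0275 with the GC-content offset, -0.0730 with the length offset and 0.0019 by limma-voom, or 0.0010 with the block. It ranged from -0.1473 to -0.0584 without single libraries and from -0.1150 to -0.0911 without a pair (-0.1150 without the first, -0.1090 without the second). Of the 78 MRP genes, 3 were higher and 14 lower with groups apart as reported. These counts became 8 higher and 11 lower after upper-quartile scaling. After median-of-ratios scaling they were 10 higher and 8 lower, where 15.4% of all genes tested were higher and 16.4% lower. The counts were 3 to 6 higher and 14 to 41 lower without single libraries. The 41 was without knockdown replicate 1 and the 23 without control replicate 3. With fewer libraries, groups are apart more easily. The share of all genes tested was not counted for upper-quartile scaling or without single libraries.

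Over all genes tested, 35 rose and 88 fell as reported, 3 to 193 and 1 to 288 under the other settings without the block, and 1390 to 2627 and 1669 to 3501 with it. Past both thresholds, 7 rose and 11 fell as reported, 1 to 35 and 1 to 36 without the block and 64 to 193 and 19 to 160 with it. Without single libraries the counts at adjusted p were 0 to 649 and 0 to 2771.

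Of the single genes named by rule, 12 of 24 changed sign under at least 1 setting, in 43 values, while 507 kept it. With the GC-content offset, with or without the block, log2 fold changes turned to -0.0275 for MRPL55, -0.127 for MRPL41, 0.103 for MRPS36, 0.0562 for MRPL47, -0.0856 for MRPS34, 0.118 for MRPL42, 0.0371 for MRPL39, -0.0366 for MRPS18A and 0.251 for MRPS18C. The length offset turned MRPL42 to 0.114. Upper-quartile scaling, median-of-ratios scaling with and without the block, limma-voom and limma-voom with the block turned MRPL12 to 0.0145, 0.0395, 0.0420 and 0.0417, MRPL24 to 0.0289, 0.0538, 0.0575 and 0.0588, and MRPL58 to 0.0199, 0.0447, 0.0467 and 0.0459. Leaving out libraries turned MRPL12 to 0.0234 (control replicate 1), MRPL24 to 0.0422 (knockdown replicate 1) and 0.00765 (the first pair), MRPL55 to -0.00102 (the second pair), MRPS18A to -0.0288 (knockdown replicate 2), -0.0181 (control replicate 1) and -0.0210 (the second pair) and MRPL58 to 0.0176 (knockdown replicate 3). The alternatives with limma-voom, with median-of-ratios scaling and the block, and without a pair were chosen after seeing the data, and the cause of these shifts was not tested. Over the fits without single libraries these genes ranged from -0.128 to 0.0234 (MRPL12), -0.0965 to 0.0422 (MRPL24), -0.0288 to 0.130 (MRPS18A) and -0.121 to 0.0176 (MRPL58). Depth limits MRPS31, with 53 to 92 reads per library, more than other MRP genes.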

Other observations

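Of the mitochondrial release factors MTRF1, MTRF1L and MTRFR, none passed in the fits with or without the replicate block. MTRF1 was at 1.20, 0.829 and 0.864 TPM after knockdown and 1.31, 1.07 and 1.70 TPM in controls, MTRF1L at 7.96, 5.36 and 6.67 TPM against 9.21, 6.83 and 7.46 TPM, and MTRFR at 26.9, 26.7 and 22.9 TPM against 28.9, 26.4 and 28.8 TPM. The recycling factor MRRF, which takes ribosomes apart after termination, was at 6.40, 4.65 and 5.11 TPM against 8.83, 6.75 and 7.27 TPM, with the groups apart (log2 fold change -0.43, SE 0.15, adjusted p 0.142 by limma, with the replicate block 0.0147).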
